A study of Mus musculus with 45 samples.

Results

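Gene bodies held 3415 of the 8199 regions (41.7%) whose DNA methylation differed between obese and control mice. These differentially methylated regions (DMRs) came from whole-genome bisulfite sequencing (WGBS) of the colonic epithelium, and a region belonged to a gene body when its midpoint lay inside the start-to-end span of a gene and more than 1 kb from every gene start. Of these, 1698 had gained methylation in obese mice (hyper-DMRs) and 1717 had lost it (hypo-DMRs), so 49.7% were hyper-DMRs. They lay in 2577 gene entries, called host genes here, of 24918 in the table of counts.

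The animals were male C57BL/6 mice (substrain C57BL/6J in the methods) that entered the diets at 6 weeks of age. Control mice (LF) ate a diet with 10% fat for 20 weeks, obese mice (HF) a diet with 60% fat for 20 weeks, and formerly obese mice (HFLF) the 60% diet for 15 weeks and then the 10% diet for 5 weeks. WGBS, mRNA sequencing and sequencing of bisulfite PCR amplicons (BSP-seq) each covered 5 mice per group. The list compared obese with control mice only and gave a position and a direction for each region, with no methylation level, so the direction is a description and was not tested here.

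DNA methylation in mammals sits mostly on the cytosine of CpG pairs, where a cytosine is followed by a guanine. Methylation at a gene start is known to go with silencing, whereas the body of a transcribed gene is usually methylated, and that methylation is laid down in part by Dnmt3b on chromatin marked by transcription. Introns also hold enhancers, short stretches bound by transcription factors, where methylation tends to be low when the enhancer is in use.

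Most of the gene-body DMRs were short. Their median length was 26 bases (quartiles 12 and 67.5, range 4 to 1989), 3172 of 3415 (92.9%) held exactly 2 CpGs, and no region held more than 8. The rule of the authors asked for at least 2 differential CpGs in a region, so 2 was the lowest number possible. Each began and ended on a CpG of the mm10 genome. The sequences below are from the plus strand of mm10, 5′ to 3′, with each CpG in capitals, and they show what such a region looks like in genes that recur in the results. The first 3 came from genes whose RNA was higher in obese mice than in controls (Gm2061 and Fhl2) or lower (Gpam), and all but Fhl2's were hyper-DMRs.
Gm2061, chr1:185452963-185453003: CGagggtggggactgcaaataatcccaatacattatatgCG
Fhl2, chr1:43168855-43168920: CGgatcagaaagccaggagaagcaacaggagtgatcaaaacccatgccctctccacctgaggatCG
Gpam, chr19:55093041-55093070: CGaagggaaagagagaggtgcatctgagCG
Next are 3 of the 4 hyper-DMRs of Scd2, which had the most regions for its CpGs among hosts of 3 or more, and the whole stretch of 63 bases that held both hyper-DMRs of Mesdc1.
Scd2, chr19:44297959-44298041: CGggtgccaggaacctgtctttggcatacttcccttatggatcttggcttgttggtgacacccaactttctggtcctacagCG
Scd2, chr19:44300010-44300080: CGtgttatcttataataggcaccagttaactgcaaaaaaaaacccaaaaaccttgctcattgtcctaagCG
Scd2, chr19:44301321-44301342: CGataCGcCGtggtgctcaaCG
Mesdc1, chr7:83882570-83882632: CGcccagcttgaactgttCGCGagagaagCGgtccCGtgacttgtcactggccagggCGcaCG
The last set holds a hypo-DMR in a coding exon of Trf, a hypo-DMR in an intron of Csad, a hyper-DMR of Camta1, the gene with the most regions, and the hypo-DMR with the most CpGs among regions up to 300 bases, which lay in Gm21949.
Trf, chr9:103226934-103226959: CGgcttcacttgcctagaagagagCG
Csad, chr15:102187781-102187863: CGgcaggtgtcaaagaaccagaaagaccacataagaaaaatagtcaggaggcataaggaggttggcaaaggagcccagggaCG
Camta1, chr4:151209135-151209229: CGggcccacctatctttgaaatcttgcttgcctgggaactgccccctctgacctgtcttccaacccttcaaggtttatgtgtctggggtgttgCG
Gm21949, chr3:68056900-68056993: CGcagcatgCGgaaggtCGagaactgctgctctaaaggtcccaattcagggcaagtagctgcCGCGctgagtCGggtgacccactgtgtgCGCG
The Gpam and Csad regions each held a CpG at both ends and none between, the form of most regions, whereas the Scd2 region in its coding exon held 4 CpGs within 22 bases.

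Within their host genes the DMRs were mainly intronic. Of 3341 regions with 1 host, 2907 (87.0%) had their midpoint in an intron of a curated RefSeq transcript, 282 in a coding exon, 78 in a 3′ UTR, 5 in a 5′ UTR and 37 in an exon of a non-coding transcript. Intron 1 held 924 of the intronic regions (31.8%). Hyper- and hypo-DMRs were close to even in introns (1447 and 1460) and coding exons (139 and 143), and 30 and 48 in 3′ UTRs. The median distance from the start of the host was 38.8 kb (quartiles 10.8 and 114 kb), and the 5 equal parts of the gene span, from start to end, held 735, 645, 650, 605 and 706 regions.

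**Figure D1:**
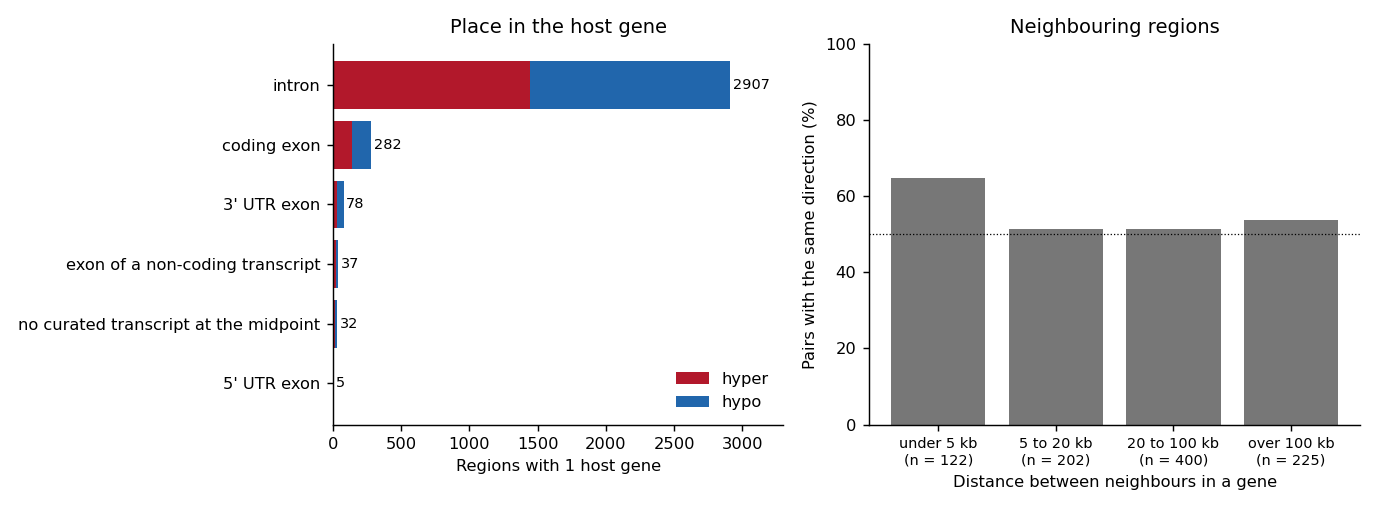
Left, number of regions with 1 host gene by the feature at their midpoint, split into hyper-DMRs (red) and hypo-DMRs (blue). Right, share of neighbouring region pairs of a gene that had the same direction, by the distance between them, with the number of pairs under each bar and a dotted line at 50%. Introns held 2907 regions, and pairs under 5 kb apart shared a direction most often (64.8%).

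This placement was close to that of the CpGs themselves. By the same rule 40.2% of the CpGs of these chromosomes lay in gene bodies, against 41.7% of the regions, which came to 388 regions per 1000000 gene-body CpGs, 377 per 1000000 outside genes and 277 per 1000000 within 1 kb of a gene start. Exons of any transcript held 13.1% of gene-body regions and 12.7% of gene-body CpGs. Coding exons held 9.22% and 9.11%. Repeat-masked sequence held fewer of the regions (14.2%) than of the CpGs (18.7%), and outside genes it held 26.4% of the regions. In a window of 201 bases the median GC content was 49.3% around the regions and 47.3% around all gene-body CpGs, and the median number of CpGs was 4 and 3. A region needed at least 2 differential CpGs, whereas a window around any CpG needed only its own. The 2 kinds of window were therefore not chosen alike, and no conclusion is drawn from this difference. Which CpGs had been covered deeply enough to be tested was not analysed here, so these shares are given without a test.

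Motifs of factors active in the colonic epithelium were searched on both strands of the same 201 bases. TTTATNG, the core bound by the intestinal factors Cdx1 and Cdx2, was found around 377 regions (11.04%) and around 9.43% of all gene-body CpGs. CCGGAAG, an ETS motif with a CpG in it, was found around 75 regions (2.20%) and 1.47% of CpGs. The shares for the regions and for all gene-body CpGs were 5.89% and 5.50% for the AP-1 motif TGANTCA and 1.38% and 1.37% for the CTCF motif. They were 1.201% and 0.910% for the HNF4 motif CAAAGTNCA and, from 14 regions, 0.410% and 0.231% for the E2F motif TTTCCCGC. Windows around regions held more CpGs and more GC than those around all CpGs, whose part in these shares was not tested. Between hyper- and hypo-DMRs the widest gap was that of AP-1, at 6.12% and 5.65%.

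The distance rule left regions of like direction on both sides of it. Just inside the rule, 24 regions lay 1001 to 1095 bases from the nearest gene start, of which 12 were hyper- and 12 hypo-DMRs. Just outside it, 45 lay 902 to 996 bases away, of which 20 were hyper- and 25 hypo-DMRs. Some hosts named below had their region close to the limit. It lay 1001 bases from the gene start in Slc35d1, 1007 in Ankrd50, 1208 in B3gnt7, 1221 in Csad and 1235 in Chodl. Intron and exon numbers are those of the longest curated transcript that spans the region, which can begin elsewhere than the gene start used here. The table also held 137 entries, among them small RNAs with several copies, whose span was more than 2 times that in RefSeq, and 32 regions had only such entries as hosts.

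Several regions in 1 gene were common in long genes. Of the 2577 hosts, 1940 held 1 region, 637 held 2 or more, 207 held 3 or more and 32 held 5 or more. The median span was 73.7 kb in hosts, 314 kb in hosts of 3 or more and 11.5 kb in entries with none, and 59.3% of entries over 200 kb were hosts against 3.11% of those up to 20 kb. Per CpG the order was not the same, with 470 regions per 1000000 CpGs in entries up to 20 kb and 370 in those over 200 kb. Hosts of 1 direction were as frequent for hyper-DMRs (1077) as for hypo-DMRs (1134), and 366 hosts held both.

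Regions of 1 gene did not generally share a direction. Of 430 hosts with exactly 2 regions, 227 held the same direction at both and 203 opposite ones, and of 207 with 3 or more, 163 held both directions. The exception was distance. Among 949 neighbouring pairs within a gene, 79 of 122 pairs less than 5 kb apart (64.8%) had the same direction, against 104 of 202 (51.5%) at 5 to 20 kb, 206 of 400 (51.5%) at 20 to 100 kb and 121 of 225 (53.8%) beyond. The methods describe merging of differential CpGs over distances like the shortest of these, yet the list kept such regions as separate entries, so what separates close neighbours in it is not known.

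Camta1, which encodes a calmodulin-binding transcription activator, held the most regions, 12 over 802 kb on chromosome 4 (151059523 to 151861768, minus strand). Of these, 11 were hyper-DMRs and 1 a hypo-DMR, all in introns 3 to 7. Its RNA was low, at 15.4 ± 0.947 CPM (counts per 1000000, mean ± SD, n = 5) in LF mice, 14.8 ± 1.46 in HF and 14.9 ± 2.83 in HFLF mice, and the groups overlapped. Auts2 and Ptprt, the latter a receptor tyrosine phosphatase, each held 8 regions over spans of 1105 and 1139 kb, with 4 hyper- and 4 hypo-DMRs in Auts2 and 3 and 5 in Ptprt. Foxp1, a forkhead transcription factor, held 3 hyper- and 4 hypo-DMRs, and its RNA stood at 165 ± 14.4, 161 ± 11.2 and 164 ± 12.5 CPM in control, obese and formerly obese mice.

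Sh3pxd2a, a scaffold protein of podosomes, held 6 regions over 204 kb and all were hypo-DMRs, 4 of them within 4.05 kb of intron 8. Its RNA was 38.3, 41.1, 36.0, 20.9 and 32.7 CPM in control and 30.9, 33.8, 24.4, 31.5 and 27.9 CPM in obese mice. These ranges overlapped (log2 fold change -0.19 ± 0.17 SE, edgeR adjusted p = 0.741). The gene Bc1, a neuronal small RNA, is listed in 2 spans, with 5 regions on chromosome 10 and 3 on chromosome X, but these spans join distant copies and its count was 0 in every library.

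Scd2, a stearoyl-CoA desaturase that makes monounsaturated fatty acids, had the most regions for its size among hosts of 3 or more whose span matched RefSeq. It held 4 hyper-DMRs within 3.38 kb (chromosome 19, 44293676 to 44306862, plus strand), in introns 2, 3 and 4 and in coding exon 5, or 19.6 per 1000 gene-body CpGs. The next host by this measure, Sirpb1b, had 8.22. Scd2 was named as a list member and for this value, so it was chosen after the values were seen.

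**Figure D2:**
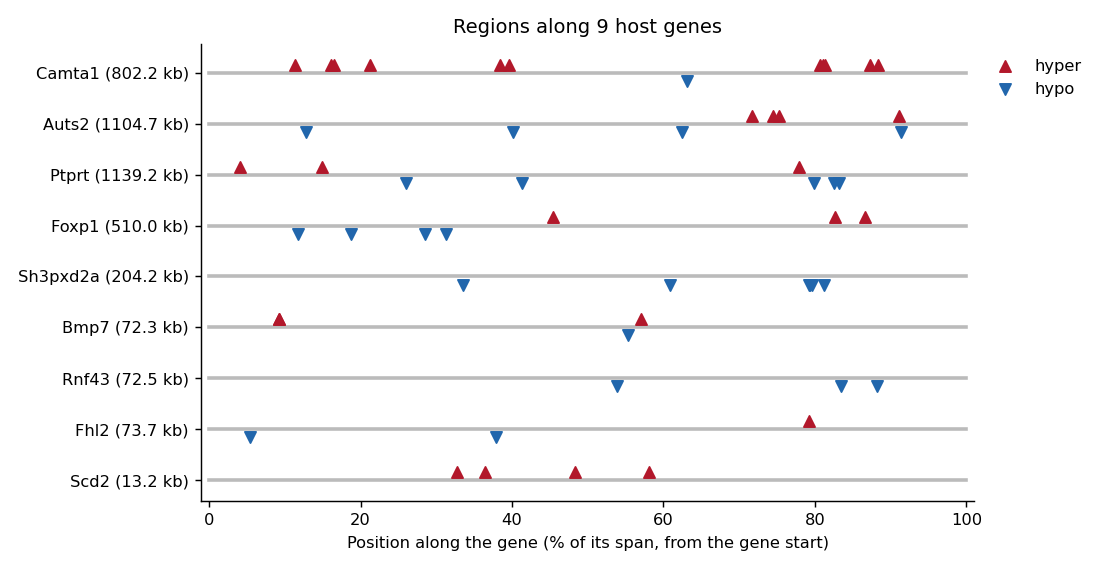
Positions of the gene-body regions along 9 host genes, as a percent of the gene span from the gene start, with hyper-DMRs as red upward and hypo-DMRs as blue downward triangles and the span in kb beside each name. The 12 regions of Camta1 include 1 hypo-DMR, the 6 of Sh3pxd2a are all hypo-DMRs and the 4 of Scd2 are all hyper-DMRs. The 2 hyper-DMRs of Bmp7 nearest its start lie 58 bases apart and share a symbol.

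Regions were found in genes of every expression level. Of the 2577 hosts, 1498 (58.1%) had enough counts to be tested against 51.3% of other entries, and 300 had no count in any library. Among hosts of 5 or more regions, 14 of 32 were tested. Genes below the count filter held 490 regions per 1000000 gene-body CpGs, and the 4 quartiles of tested genes by RPKM (CPM per kb of exon, control mice) held 413, 282, 310 and 361 from lowest to highest. Hyper-DMRs made up 51.9% of regions in genes below the filter, and 52.1%, 44.2%, 44.6% and 48.6% in the quartiles. The median level of tested hosts was 7.32 RPKM against 9.88 in genes with no region.

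**Figure D3:**
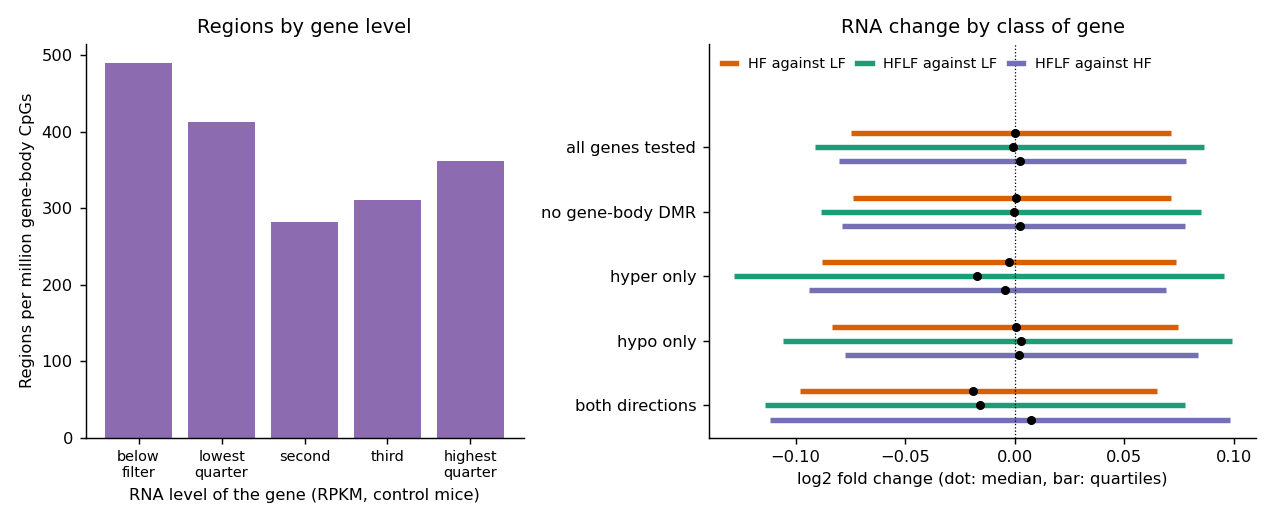
Left, regions per 1000000 gene-body CpGs in genes below the count filter and in 4 quartiles of RPKM in control mice. Right, log2 fold changes of RNA by class of gene in 3 comparisons, with the median as a dot and the quartiles as a bar. The rate was highest below the filter (490) and lowest in the second quartile (282), and the medians of the host classes lay between -0.0191 and 0.00757.

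RNA libraries held 15230391 to 22762095 gene counts each. The 9 epithelial markers together gave 13471 to 23073 CPM per library, the 5 smooth muscle markers at most 2.39 CPM and the 3 adipocyte markers at most 0.374 CPM, with Plin1 at 0 in all 15 libraries. The 5 fibroblast markers summed to 2.28 to 10.5 CPM in control mice, to 6.42 to 17.3 in the obese group and to 5.89 to 30.1 in the formerly obese. The 6 immune markers summed to 17.3 to 26.4, 23.4 to 42.3 and 18.9 to 36.4 CPM in the same order. In bulk tissue fewer cells of a type and less RNA per cell cannot be told apart.

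To ask whether a gene with a gene-body DMR also had altered RNA, hosts were compared between obese and control mice. A call needed a fold change over 1.2 either way, a p-value under 0.01 and an adjusted p under 0.25 in edgeR, and 28 of 1498 tested hosts (1.87%) met it, beside 1.58% of all 12961 genes tested, so the share in hosts was near that in all genes. Of these, 11 were higher and 17 lower (all genes, 0.718% higher and 0.864% lower). At an adjusted p under 0.05 there were 3 hosts (0.200%, all genes 0.123%), and at an unadjusted p under 0.05 the shares were 10.9% in both. The median log2 fold change was -0.0025 in hosts and 0.00024 over all genes tested. The groups did not overlap in 40 hosts (2.67%), beside 2.47% of all genes tested. The count of called hosts turned on single libraries, being 7 without control mouse 2, 9 without obese mouse 3 or 5, 11 without obese mouse 4 and 47 without obese mouse 2. The share over all genes in these fits is not given here, so the swing cannot be read as particular to hosts.

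The direction of the DMR and of the RNA did not follow each other in a single way. Among 614 tested hosts of hyper-DMRs only, 13 were called (2.12%), 7 higher and 6 lower. Hosts of hypo-DMRs only had 11 calls among 694 (1.59%), 2 higher and 9 lower. Hosts of both directions had 4 among 190 (2.11%), 2 each way. Over all genes tested 1.58% were called, with 0.718% higher and 0.864% lower. The difference between these classes was not tested. Hosts with a region in an exon had 7 calls among 229 (3.06%), and hosts with one in intron 1 had 9 among 505 (1.78%). At an edgeR adjusted p under 0.05 there were 2 hosts of hyper-DMRs only, 0 of hypo-DMRs only and 1 of both directions. At that cutoff hosts with a region in an exon gave 0 and those with one in intron 1 gave 1.

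Syk, a cytoplasmic tyrosine kinase, carried 1 hyper-DMR of 12 bases in intron 7. Its RNA was 52.8, 62.1, 57.5, 59.4 and 57.1 CPM in control and 72.3, 62.7, 74.3, 75.5 and 70.3 CPM in obese mice. Every obese mouse was above every control mouse, and the change kept its call under every alternative tried (log2 0.30 ± 0.06 SE, edgeR adjusted p = 0.0468).

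Fhl2, a LIM-domain cofactor of transcription, held 1 hyper-DMR in intron 3 and 2 hypo-DMRs in intron 1. Control mice had 11.1, 11.5, 12.3, 10.8 and 11.1 CPM, obese mice 14.3, 14.1, 14.5, 15.1 and 15.0 CPM and formerly obese mice 11.01, 12.3, 11.5, 13.1 and 11.1 CPM. Obese mice were apart from both other groups, which overlapped each other. Fhl2 rose in obese mice (log2 0.37 ± 0.07 SE, edgeR adjusted p = 0.0468) and fell from obese to formerly obese mice (log2 -0.31 ± 0.07 SE, edgeR adjusted p = 0.0623). Gm2061, a predicted non-coding RNA with 1 hyper-DMR in intron 2, had the largest change among the called hosts that were higher. It had 1.68, 1.05, 1.18, 0.985 and 0.708 CPM in control and 4.09, 1.83, 3.36, 4.12 and 2.88 CPM in obese mice. The groups did not overlap, at a low level (log2 1.53 ± 0.28 SE, edgeR adjusted p = 0.0371).

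Pmepa1, an inhibitor of TGF-β signalling with a hyper-DMR in intron 1, was higher in obese mice, at 16.9 ± 1.65 against 13.3 ± 1.70 CPM (log2 0.35, edgeR adjusted p = 0.166). Also called higher were Lama3, a laminin chain (log2 0.69), the non-coding Fer1l4 (0.80), the zinc receptor Gpr39 (0.30), the transcription factor Runx3 (1.06), the calcium pump Atp2b4 (1.14) and Ankrd50 (0.26). Of all 11 hosts called higher, Gm2061, Syk and Fhl2 kept their call in every setting, Lama3 lost it only at an adjusted p under 0.05, and the other 7 lost it without at least 1 library. Runx3 reached at most 2.40 CPM, and its level moved in the same direction as the summed immune markers, whose part in the change was not tested.

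Gpam, the enzyme of the first step of glycerolipid synthesis, carried a hyper-DMR in intron 6. It had 61.5, 53.8, 64.3, 55.3 and 52.0 CPM in control and 44.5, 50.9, 43.2, 46.2 and 40.4 CPM in obese mice. All obese mice lay below all control mice (log2 -0.35 ± 0.07 SE, edgeR adjusted p = 0.0723). Abcc4, an exporter of nucleotides and drugs with a hypo-DMR in intron 18, had 22.7, 22.3, 20.3, 21.2 and 21.8 CPM in control and 17.2, 17.7, 17.8, 17.1 and 17.7 CPM in obese mice. The ranges were again apart and narrow (log2 -0.31 ± 0.06 SE, edgeR adjusted p = 0.0723). Tmeff1, a transmembrane protein with a hypo-DMR in coding exon 6, stood at 19.8 ± 1.93 and 14.0 ± 1.81 CPM (log2 -0.50, edgeR adjusted p = 0.057).

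Irs1, the adaptor of the insulin receptor, carried a hypo-DMR of 7 bases in intron 1. It had 9.34, 11.6, 9.92, 7.76 and 10.9 CPM in control and 9.12, 8.07, 6.19, 6.55 and 4.80 CPM in obese mice. These ranges overlapped, and although Irs1 fell by the call rule (log2 -0.51 ± 0.14 SE, edgeR adjusted p = 0.178) it lost its call without control mouse 2 or 5 or obese mouse 3, 4 or 5, with log2 fold changes of -0.63 to -0.40 over the settings tried. B3gnt7, a glycosyltransferase that extends glycans of the epithelium and the most abundant of these hosts, had a hyper-DMR in intron 1 and was at 985 ± 121 and 806 ± 67.5 CPM (log2 -0.29, edgeR adjusted p = 0.178). Also lower were Rell1 (log2 -0.26), the integrin chain Itga8 (-1.43), the methyltransferase Smyd3 (-0.36), the anion channel subunit Lrrc8e (-0.30), the Notch coactivator Maml3 (-0.27), nectin-4, listed as Pvrl4 (-0.43), and the kinase Cdk14 (-1.08). Of the 26 named hosts called in this comparison, some of them named through another comparison, 19 lost their call without at least 1 library. None changed sign in any setting tried.

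**Figure D4:**
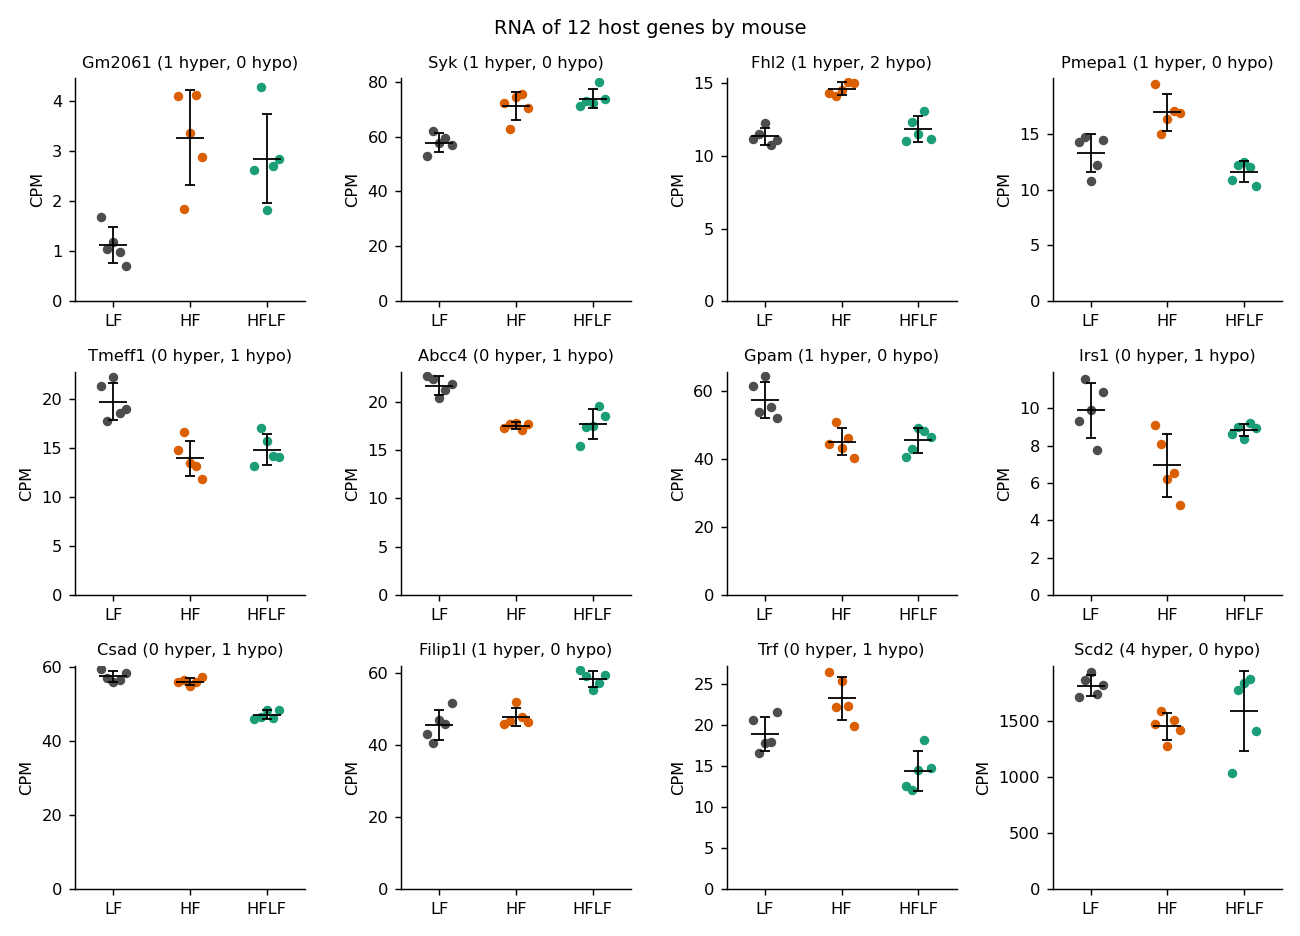
RNA of 12 host genes in CPM (vertical axes, each from 0) for 5 control (LF), 5 obese (HF) and 5 formerly obese (HFLF) mice, with each mouse as a point, the mean as a wide line and the SD as a bar, and the number of hyper- and hypo-DMRs in each title. Syk, Gm2061 and Fhl2 in obese mice lie above all controls and Gpam, Abcc4 and Tmeff1 below them. In formerly obese mice Csad and Filip1l overlap neither other group. Trf there does not overlap obese mice and overlaps control mice, although it was called lower than in both.

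The hosts were next compared between formerly obese and control mice, which share the control libraries with the comparison above. Of 1498 tested hosts 70 (4.67%) were called, beside 3.72% of all genes tested, with 32 higher and 38 lower (all genes, 1.85% and 1.87%). At an adjusted p under 0.05 there were 46 hosts (3.07%, all genes 2.18%), at an unadjusted p under 0.05 20.2% (all genes 16.7%), and the groups did not overlap in 60 hosts (4.01%, all genes 3.62%). Hosts of hypo-DMRs only had 39 calls among 694 (5.62%) and hosts of hyper-DMRs only 23 among 614 (3.75%), a difference that was not tested. The median log2 fold change was -0.0086 in hosts and -0.00065 over all genes tested.

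Csad, which makes hypotaurine on the way to taurine, carried a hypo-DMR of 83 bases in intron 7 of a curated transcript. The region lay only 1221 bases from the gene start used here. It had 59.6, 57.1, 56.0, 56.4 and 58.3 CPM in control, 55.9, 56.5, 54.8, 56.0 and 57.3 CPM in obese and 46.0, 46.6, 48.5, 46.2 and 48.5 CPM in formerly obese mice. Formerly obese mice were below every mouse of both other groups, whose means lay 0.04 apart on the log2 scale. Csad fell against control mice (log2 -0.29 ± 0.04 SE, edgeR adjusted p = 0.0029). Filip1l, with a hyper-DMR in intron 1, had 42.9, 40.6, 46.9, 45.7 and 51.5 CPM in control and 60.8, 59.2, 55.1, 57.2 and 59.3 CPM in formerly obese mice. It was higher in formerly obese mice with no overlap (log2 0.36 ± 0.06 SE, edgeR adjusted p = 0.0121).

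Other hosts called higher in formerly obese than in control mice included Syk (log2 0.35), the actin-bundling protein Eps8 (0.33), the brush border protease Mep1a (0.28) and Bmp3 (0.48). Those lower included Bckdha, a subunit of the branched-chain ketoacid dehydrogenase (-0.33), the collagen Col16a1 (-0.52), B3gnt7 (-0.41) and Tnks1bp1 (-0.27). All but Syk, Filip1l and B3gnt7 of these carried 1 hypo-DMR, and those 3 carried 1 hyper-DMR. Called in this comparison as in obese mice were also Gm2061 (log2 1.32) and Atp2b4 (1.12), both higher. Lower in both were Gpam (-0.33), Abcc4 (-0.29), Tmeff1 (-0.41), Pvrl4 (-0.49) and Cdk14 (-0.99). Atp2b4, Abcc4 and Cdk14 lost this call without at least 1 library. Apart from these and from Syk and B3gnt7, the hosts named above as called in obese mice were not called here. Col16a1 was lower in the group in which the summed fibroblast markers reached their highest value, in a range of 5.89 to 30.1 CPM. None of the 4 fibroblast markers tested was called in any comparison, and the part of fibroblast content in the Col16a1 change was not tested. Mep1a lost its call without formerly obese mouse 1, and Tnks1bp1 without control mouse 1 or 2 or formerly obese mouse 2, 4 or 5. Markers of mature colonocytes also moved in this group. Slc26a3, the chloride and bicarbonate exchanger of the surface epithelium, had 818 to 1311 CPM in control, 854 to 1136 in obese and 1354 to 1764 in formerly obese mice, and was called higher there than in control (log2 0.41, edgeR adjusted p = 0.0818) and obese mice (0.62, edgeR adjusted p = 0.0433). The keratin Krt20 was called higher than in control mice (log2 0.55, edgeR adjusted p = 0.0806), and the part of these shifts in the host changes was not tested.

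Formerly obese mice were last compared with obese mice, whose libraries also entered the first comparison. Here 36 hosts (2.40%) were called, beside 2.65% of all genes tested, with 17 higher and 19 lower (all genes, 1.23% and 1.42%). At an adjusted p under 0.05 there were 3 (0.200%, all genes 0.193%), at an unadjusted p under 0.05 14.8% (all genes 13.4%), and 62 hosts did not overlap (4.14%, all genes 3.38%). The count of called hosts was 21 without obese mouse 1 and 21 without formerly obese mouse 5, again with no share over all genes for these fits. Trf, the iron carrier transferrin, carried a hypo-DMR of 26 bases in coding exon 3. Its RNA was 26.4, 22.2, 25.3, 22.3 and 19.9 CPM in obese and 12.6, 12.03, 14.4, 18.1 and 14.7 CPM in formerly obese mice. All formerly obese mice were lower (log2 -0.69 ± 0.11 SE, edgeR adjusted p = 0.0191). Control mice had 20.6, 16.6, 17.8, 17.9 and 21.5 CPM. Trf was also called lower in formerly obese than in control mice (log2 -0.39, edgeR adjusted p = 0.0754), although these groups overlapped. In obese against control mice it was not called (log2 0.30, edgeR adjusted p = 0.325).

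Pmepa1 also fell, from 16.9 ± 1.65 to 11.6 ± 0.938 CPM (log2 -0.55 ± 0.10 SE, edgeR adjusted p = 0.0297). Mesdc1, a gene with 1 exon and 2 hyper-DMRs in its coding sequence, was at 67.9, 77.3, 77.4, 67.6 and 71.9 CPM in obese and 66.0, 49.9, 54.8, 59.0 and 53.9 CPM in formerly obese mice. The groups were apart by a narrow margin (log2 -0.35 ± 0.07 SE, edgeR adjusted p = 0.0541). Chodl, a membrane lectin with a hyper-DMR (log2 -0.90), and Slc24a3, a sodium and calcium exchanger with 2 hypo-DMRs (-0.54), were lower too. Higher were Itln1, a lectin that binds microbial sugars, with a hypo-DMR in coding exon 5 (1.41), Abca13 with a hyper-DMR (1.08), 9830001H06Rik with 2 hypo-DMRs (0.65), the nucleotide sugar transporter Slc35d1 (0.42) and Filip1l (0.29). Against control mice, formerly obese mice were also called lower for Slc24a3 (log2 -0.43, edgeR adjusted p = 0.0707) and higher for Slc35d1 (log2 0.48, edgeR adjusted p = 0.0245). Neither Slc24a3 nor Slc35d1 was called in obese against control mice. Itln1, Abca13 and 9830001H06Rik were also called lower in obese than in control mice (log2 -1.11, -0.80 and -0.51), with Itln1 and Abca13 at under 6 CPM. Those calls against control mice were lost in 8, 10 and 9 of 16 settings, and for Itln1 the groups overlapped. Abca13 lost both of its calls in DESeq2. Both comparisons use the same obese libraries, so the fall and the rise are not independent.

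Among lipid genes, 12 of 57 were hosts with 16 regions (9 hyper-, 7 hypo-DMRs), or 539 per 1000000 gene-body CpGs beside 388 for all genes. Scd2 had the highest RNA, at 1709, 1862, 1930.4, 1739 and 1819 CPM in control, 1469, 1587, 1271, 1502 and 1413 CPM in obese and 1034, 1774, 1833, 1867 and 1404 CPM in formerly obese mice. Every obese mouse was below every control mouse, but the change did not pass the call rule in edgeR (log2 -0.32 ± 0.12 SE, edgeR adjusted p = 0.331) and did in DESeq2. Formerly obese mice spanned both ranges. Counts of Scd2 are uncertain where reads could also come from the similar genes Scd1, Scd3 or Scd4. Of 54 tested lipid genes, 2 were called higher and 6 lower in obese mice, beside 0.718% and 0.864% of all genes tested. Gpam was the only host among them called by edgeR. Elovl6, an elongase with a hypo-DMR, was higher in formerly obese than in control mice (log2 0.29, edgeR adjusted p = 0.0813).

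Of 45 genes of glucose metabolism and insulin signalling, 10 were hosts with 13 regions (378 per 1000000 CpGs, all genes 388). Of these regions Igf1r, a growth factor receptor, held 3 and the kinase Gsk3b held 2. In obese mice edgeR called 1 host of this list, Irs1, and DESeq2 called Irs1 and Irs2. Irs2, a second adaptor of the insulin receptor, with a hyper-DMR, rose from obese to formerly obese mice (log2 0.59, edgeR adjusted p = 0.0623). Of 42 tested genes of this list, 1 was called higher and 3 lower in obese mice. Over all genes tested the shares were 0.718% and 0.864%.

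The Wnt pathway, which maintains stem cells at the crypt base, had 16 hosts among 46 genes and 25 regions (8 hyper-, 17 hypo-DMRs). This came to 808 per 1000000 gene-body CpGs beside 388 for all genes, a difference that was not tested. Over all entries 10.3% were hosts. Its hosts included the receptor Lrp5 with 2 hypo-DMRs, the scaffold Apc with 2 hypo-DMRs, the nuclear effectors Tcf7l2 and Lef1 with 2 regions each, and the feedback ubiquitin ligase Rnf43 with 3 hypo-DMRs. None of the 16 hosts, 13 of them tested, was called by edgeR or DESeq2 in any of the 3 comparisons. An unadjusted p under 0.05 was found in 0 hosts for obese against control mice (all genes 10.9%) and in 3 for formerly obese against control (all genes 16.7%). For formerly obese against obese mice it was found in 0 (all genes 13.4%). So few tested hosts cannot show whether the list differed from all genes. Rnf43 was 76.1, 61.4, 58.9, 52.0 and 61.6 CPM in control and 63.7, 57.5, 57.8, 60.2 and 57.8 CPM in obese mice, which overlapped (log2 -0.06 ± 0.07 SE, edgeR adjusted p = 0.819). The list median was -0.017 and that of its hosts -0.032, beside 0.00024 over all genes tested.

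For BMP and TGF-β signalling 9 of 40 genes were hosts, with 16 regions (544 per 1000000 CpGs, all genes 388), and the ligand Bmp7 held 4 of them. Bmp3, a ligand with a hypo-DMR in intron 1, was the host of this list that was called, higher in formerly obese mice than in control (log2 0.48) and obese mice (0.28). The call against control mice held in all 16 settings tried, whereas that against obese mice, with overlapping groups, was lost in 9 of them, 7 of which left out 1 library. Of 27 Notch genes, 2 were hosts, Maml3 and the DNA-binding Rbpj, with 2 regions each. Of 50 genes of receptor tyrosine kinases and their feedback, 9 were hosts with 11 regions. No host of that list was called by edgeR or DESeq2. Of its 7 tested hosts, 1 had an unadjusted p under 0.05, in obese against control mice (all genes 10.9%).

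Cell adhesion and tight junction genes had 15 hosts among 44 and 31 regions (19 hyper-, 12 hypo-DMRs), or 309 per 1000000 CpGs (all genes 388). The cadherin Cdh4 held 6 regions, 5 of them hyper-DMRs, Ptprm held 4 hyper-DMRs and Cdh13 held 4 hypo-DMRs. Cdh4 and Cdh13 were below the count filter and Ptprm was near 5.72 CPM. Lama3 was the host of this list called in obese mice. Of 54 genes of DNA methylation and chromatin, 11 were hosts with 16 regions, among them Dnmt3a with 2 hypo-DMRs and Dnmt3b, Tet1 and Tet2 with 1 region each. In obese mice none of the 11, 10 of them tested, was called by edgeR or DESeq2 or had an unadjusted p under 0.05 (all genes 10.9%). Hdac9, a histone deacetylase with 3 regions, rose from obese to formerly obese mice at a level under 5 CPM (log2 0.71, edgeR adjusted p = 0.201), but the groups overlapped and the call was lost in 8 of the 10 fits without 1 library. Nuclear receptors gave 10 hosts among 41 genes and 13 regions (4 hyper-, 9 hypo-DMRs), with 3 in Rora and 2 in Esrrg, and clock genes 2 among 20. Neither tool, edgeR or DESeq2, called a host of either list in any comparison. At an unadjusted p under 0.05 the 8 tested nuclear receptor hosts gave 2, 0 and 1 genes in the 3 comparisons. The 1 tested clock host gave 0, 0 and 1. Over all genes the shares were 10.9%, 16.7% and 13.4%, and with so few tested hosts no conclusion is drawn.

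One gene-body DMR could be read in single mice. BSP-seq gave 233 distinct CpGs, and 2 of them lay in a gene-body region, a hyper-DMR of 5 bases in coding exon 5 of Lhx9, a LIM homeobox gene whose RNA was below the count filter. It is shown here with 48 bases on each side, from the plus strand of mm10.
Lhx9, chr1:138838400-138838500: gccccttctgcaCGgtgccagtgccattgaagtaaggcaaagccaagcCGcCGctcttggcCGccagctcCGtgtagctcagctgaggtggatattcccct
The mean methylation of the 2 CpGs was 24.5, 12.6, 22.4, 32.3 and 35.5% in the 5 control mice, 20.1, 11.2, 8.72, 10.0 and 30.3% in obese and 29.9, 11.2, 12.6, 17.3 and 27.0% in formerly obese mice. The groups overlapped, and the mean was 25.4% ± 8.99 (SD, n = 5) in LF mice, 16.1% ± 9.14 in HF mice and 19.6% ± 8.44 in HFLF mice. Obese mice were below control mice by a difference of -9.36 percentage points (two-sided exact permutation p = 0.143, adjusted over 3 comparisons 0.429), a direction opposite to that in the list of regions. Leaving out obese mouse 5, the highest of its group, gave a difference of -12.9 points (exact permutation p = 0.0397), and leaving out any other mouse gave an exact permutation p of 0.0556 to 0.246. Formerly obese mice differed from control mice by -5.85 points (exact permutation p = 0.325, adjusted 0.488) and from obese mice by 3.52 points (exact permutation p = 0.556, adjusted 0.556).

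**Figure D5:**
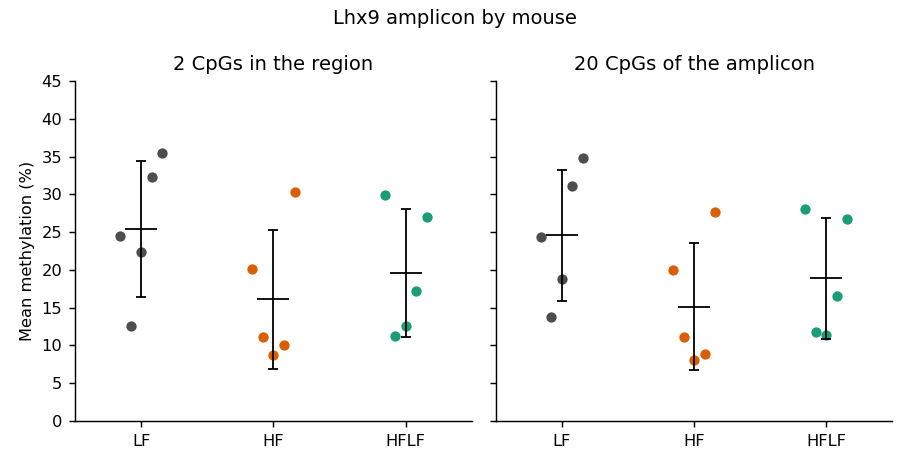
Mean methylation in percent of the 2 amplicon CpGs inside the Lhx9 region (left) and of all 20 CpGs of that amplicon (right) in 5 control (LF), 5 obese (HF) and 5 formerly obese (HFLF) mice, each mouse a point, with the mean as a wide line and the SD as a bar. The group means were 25.4%, 16.1% and 19.6% in the region and 24.6%, 15.1% and 18.9% over the amplicon, and the groups overlap in both.

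All 20 CpGs of the amplicon together gave 24.6% ± 8.68 in LF mice, 15.1% ± 8.44 in HF mice and 18.9% ± 8.02 in HFLF mice, so the region and its surroundings had much the same level. Both CpGs of the region had the same order of means, at 24.6%, 15.4% and 18.7% for the first and 26.3%, 16.8% and 20.4% for the second. No read depth was given per CpG, so no counting interval was set.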

How the data were processed

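The colonic epithelium of 5 mice per group was measured by each assay, and groups came from the sample labels. For RNA, the authors mapped reads to mm10 with TopHat2 2.0.4 and deposited raw counts per gene from HTSeq, 15230391 to 22762095 per library. The annotation release and strand mode are not given in the sources used here, so counts of overlapping genes are uncertain. WGBS reads had been mapped with Bismark by the authors, who tested CpGs by the Rao-Scott likelihood ratio test, merged nearby CpGs and deposited a list with a position and a direction score (hyper or hypo). BSP-seq values were deposited as a fraction, the methylated share of reads at each CpG, without depth. Of 253 entries, 20 repeated another and 233 were kept. The DESeq2 tables that the authors deposited hold fold changes and p-values of their own comparisons and were not used.

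Gene spans came from the table of counts, and features, CpGs and sequences from RefSeq on GRCm38 (mm10). Counts were fitted in edgeR 4.0.16 (R 4.3.3) with filterByExpr, TMM scaling and a quasi-likelihood test over all 15 libraries and 12961 genes, with Benjamini-Hochberg adjustment, and called by the cutoffs of the study (fold 1.2, p 0.01, adjusted p 0.25). CPM used TMM-scaled totals. DESeq2 1.42.0 and other settings served as alternatives. On simulated data for obese against control mice (12898 genes), 39 of 50 genes changed 1.3-fold and all 50 each at 1.5-, 2- and 3-fold were called, with 50 false calls. The simulation gave every gene the same spread between mice and changed only well-counted genes. Its share of changes found therefore does not cover hosts with few counts or a wider spread. With 5 mice against 5 the smallest exact permutation p is 0.00794. Nothing said that samples came from separate cages, so p-values measure the spread between these mice. Deviations of same-numbered libraries from their group means had correlations of both signs (-0.231 to 0.333), and these libraries were not paired. Differently numbered libraries were not compared in this way. Counting error of single values is not covered by any interval given here.

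The regions, lists and named genes were chosen with earlier results of these data known. Named were the 10 genes with the most regions, the called hosts with the smallest p (12 each way for obese against control, 5 each way for the others), hosts with an amplicon CpG in a region, and up to 4 hosts of each of 10 gene lists, plus list hosts that were called. Scd2's regions and the sequences of Mesdc1, Trf, Csad and Gm21949 were added after their values were seen. A host that met the naming rule is not reported here.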

Additional observations from a re-analysis of the deposited data

Results flagged for a closer look

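Of 216 groups of 5 libraries of named hosts, 8 had 1 library that stood apart from the other 4 by Dixon's criterion, and chance gives about 1 in 20 such groups. In formerly obese mice the highest library was 94.4 CPM for Auts2 (next 79.2), 79.8 CPM for Syk (next 73.5), 13.6 CPM for 9830001H06Rik (next 8.99) and 24.0 CPM for Esrrg (next 18.2). The lowest library there was 26.9 CPM for Maml3 (next 33.3), 81.2 CPM for Slc35d1 (next 92.7) and 50.6 CPM for Rnf43 (next 55.4). In obese mice the highest library was 8.61 CPM for Fer1l4 (next 5.85), and without that mouse Fer1l4 lost its call. The 2 highest values of 9830001H06Rik and Esrrg came from the same mouse, formerly obese mouse 5, and the Syk and Maml3 values both came from formerly obese mouse 4.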

How the results depend on the processing

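The number of gene-body regions was 3415 as described, 3218 and 2869 with the distance from gene starts raised to 2 and 5 kb, 3412 and 3419 with the whole region or any base inside a gene, and 3383 without entries of joined span, a setting chosen after seeing the data. With an adjusted p under 0.05 and no fold cutoff, called hosts numbered 3 in obese against control mice, 46 in formerly obese against control and 3 in formerly obese against obese mice, instead of 28, 70 and 36. Leaving out 1 library at a time gave 7 to 47, 47 to 97 and 21 to 52. DESeq2 gave 36, 77 and 43. A fit in which replicate numbers formed a block, which the main fit did not use, gave 39, 81 and 37. For these other fits no share over all genes is given, so their host counts cannot be set against that of all genes. For the Lhx9 amplicon the differences without 1 mouse were -12.9 to -6.86 points (obese against control), -9.06 to -3.34 (formerly obese against control) and 0.947 to 7.08 (formerly obese against obese), and in pairs by replicate number, a block by sign flips, the first difference of -9.36 points had p = 0.0625, the smallest p that 5 exact sign flips can give. No called change of a named host changed sign in any setting, a count that covers the called named hosts only. The list of regions holds no level and no depth, so how far a region changed, and which CpGs could have been tested, was not analysed here.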
